A study of Saccharomyces cerevisiae with 12 samples.

Results

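The proteins Rpl1 to Rpl23 of the cytosolic large (60S) ribosomal subunit of *Saccharomyces cerevisiae* are encoded by 43 genes, *RPL1A* to *RPL23B*. The genes were taken by a list of their systematic names, with no measured value used in the choice, and are 43 of the 7127 identifiers in the tables. Of the 23 proteins, 20 are encoded by a pair of paralogs named A and B and 3 by a single gene (*RPL3*, *RPL5* and *RPL10*). All 43 genes averaged at least 10 counts, the filter that left 6082 genes to be tested.

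Transcript levels were assayed in the diploid laboratory strain BY4743 to learn how strongly its genome is transcribed in environments that activate different sets of genes. The environments were synthetic complete medium at 37°C (SC 37°C), the same medium at 30°C with 40 g/l of added NaCl (SC NaCl), rich medium at 30°C with 3% glycerol in place of glucose (YPG), rich glucose medium at 24°C (YPD 24°C) and at 32°C (YPD 32°C), and plain synthetic complete medium at 30°C (SC 30°C), the standard condition. Each of the 6 environments had 2 biological replicates, propagated independently to the advanced growth phase, which gave 12 libraries of total RNA. All of them came from this 1 strain and so carry the same deletions, among them those of *URA3* and *LEU2*, both listed at 0 in all 12 libraries. How far the cultures matched in growth stage and in carbon source left at harvest is not stated. By the stated conditions, SC 37°C and SC NaCl differed from SC 30°C in a single factor. YPD 24°C and YPD 32°C differed from it in medium and temperature together, YPG in medium and carbon source together, and YPG from YPD 32°C in carbon source and by 2 degrees, so these factors cannot be told apart.

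The ribosomal proteins of the 60S subunit surround a core of ribosomal RNA that catalyses the formation of peptide bonds. Growing yeast cells spend a large part of their transcription on the ribosomal protein genes, which are known to be switched together by the factors Rap1, Fhl1, Ifh1 and Sfp1 under the control of the TOR and protein kinase A pathways and to be turned down in stress. Most of the genes were duplicated in an ancient doubling of the genome, and the paralogs have kept proteins that are the same or nearly so. Many of them still contain an intron, which is rare in this yeast.

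The values are counts and FPKM (fragments scaled by transcript length and by library size), both scaled by the authors, and every library added up to 13872996 to 14144527 counts. From the smallest step between low values, an estimated 12373469 to 15507637 read pairs per library were assigned to genes (median 14210314). The paper gives a larger number of read pairs obtained per sample. A change given here is therefore a change in the share of a gene in the messenger RNA of a culture, and the amount of RNA per cell was not measured. Replicates of the same environment correlated across the tested genes with a Pearson's r of 0.988 (SC NaCl) to 0.994 (YPD 32°C). Genes are not independent replicates.

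The members lie on 14 of the nuclear chromosomes, and their coding sequences are between 366 and 1164 bases long (R64 annotation). An intron is annotated in 26 of them (60.5%), against 271 of 5989 nuclear protein-coding genes (4.52%). The introns of *RPL7A* and *RPL7B* also hold the small nucleolar RNA genes *SNR39* and *SNR59*. The coding sequences of the paralogs were between 78.9% identical in *RPL22* and 99.4% in *RPL1*, and 7 pairs, among them *RPL1*, *RPL2*, *RPL12*, *RPL19*, *RPL20* and *RPL23*, encode identical proteins.

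How far reads can tell paralogs apart depends on these differences. *RPL1A* (YPL220W, chromosome XVI, 135790 to 136443, plus strand) and *RPL1B* (YGL135W, chromosome VII, 254641 to 255294, plus strand) differ at only 4 of 654 coding bases, 2 of them among the first 60. *RPL22A* (YLR061W, chromosome XII, 263194 to 263948, plus strand) and *RPL22B* (YFL034C-A, chromosome VI, 64243 to 64932, minus strand) differ at 75 positions of their coding sequences. Of these, 19 lie in the stretch of coding bases 109 to 168 shown. In each pair the stretch of 60 aligned bases without a gap that had the most differing bases was picked. These stretches of the R64 reference sequence of RefSeq are given to show the most and the least similar pair, with the differing bases in capitals:
RPL1A: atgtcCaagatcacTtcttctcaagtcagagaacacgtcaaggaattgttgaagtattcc
RPL1B: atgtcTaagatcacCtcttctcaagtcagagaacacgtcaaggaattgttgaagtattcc
RPL22A: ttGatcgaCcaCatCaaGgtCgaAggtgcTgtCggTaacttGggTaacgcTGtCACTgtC
RPL22B: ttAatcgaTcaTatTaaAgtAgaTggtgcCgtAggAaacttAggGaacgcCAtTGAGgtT
Of the 20 pairs, 15 share no window of 150 coding bases, the length of 1 read, with their paralog. The other 5 share such windows exactly, at 47.1% of the positions in *RPL11*, 45% in *RPL4*, 37.6% in *RPL1*, 17.9% in *RPL7* and 6.33% in *RPL2*, and there the division of reads between paralogs is an estimate of the authors' counting program. The balance within these 5 pairs is less certain for this reason.

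The binding of Rap1 is the best known feature of ribosomal protein promoters. The letters ACCCNNACA, a short form of its site, were searched on both strands in the 500 bases before each start codon. They occurred before 17 of the 43 members (39.5%), against 329 of all 5989 coding genes (5.49%). The 20 matches lay between 188 and 489 bases before the start codon, with a median of 343. AAAAATTTT, the RRPE motif of ribosome biogenesis genes, was found before 8 members (18.6%, against 9.48% of all coding genes). GCGATGAG, the PAC motif of the same genes, was found before 1 member (2.33%, against 4.84%). None of these 3 motifs was a site shown to be bound here, and other forms of the Rap1 site were not searched. In 4 of the pairs described below a single paralog had the Rap1-type match, and these are shown with 60 bases on each side, in the direction of the gene, with the match in capitals (in *RPL9A* the match is on the other strand). They are *RPL22B* (chrVI:65109-65237, minus strand), *RPL9A* (chrVII:228571-228699, minus strand), *RPL7A* (chrVII:366179-366307, minus strand) and *RPL14A* (chrXI:431436-431564, plus strand), from the R64 sequence of RefSeq:
RPL22B: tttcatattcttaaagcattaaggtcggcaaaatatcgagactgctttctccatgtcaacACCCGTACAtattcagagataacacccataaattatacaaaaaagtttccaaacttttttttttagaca
RPL9A: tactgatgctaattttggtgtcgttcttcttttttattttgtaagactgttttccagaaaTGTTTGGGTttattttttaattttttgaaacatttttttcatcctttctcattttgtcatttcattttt
RPL7A: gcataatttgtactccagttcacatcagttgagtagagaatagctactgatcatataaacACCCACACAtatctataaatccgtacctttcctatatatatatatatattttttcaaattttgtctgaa
RPL14A: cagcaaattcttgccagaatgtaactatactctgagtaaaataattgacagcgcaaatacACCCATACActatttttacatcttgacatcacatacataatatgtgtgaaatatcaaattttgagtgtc
In *RPL23* both paralogs had a match, and in *RPL15* neither had one.

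The members took the largest share of the transcripts in YPD 24°C and by far the smallest in SC NaCl. They held 5.31% and 4.96% of all counts in the SC 37°C libraries, 0.564% and 0.635% in SC NaCl, 5.57% and 5.74% in YPG, 6.96% and 6.86% in YPD 24°C, 5.96% and 6.34% in YPD 32°C, and 4.27% and 3.86% in SC 30°C. The libraries of no other environment overlapped those of SC 30°C. Relative to SC 30°C the mean share was 1.26-fold in SC 37°C, 0.147-fold in SC NaCl, 1.39-fold in YPG, 1.70-fold in YPD 24°C and 1.51-fold in YPD 32°C. The 38 other 60S genes and the 56 genes of the small (40S) subunit were likewise lowest in SC NaCl and highest in YPD 24°C, as the plot of shares by environment shows.

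**Figure D1:**
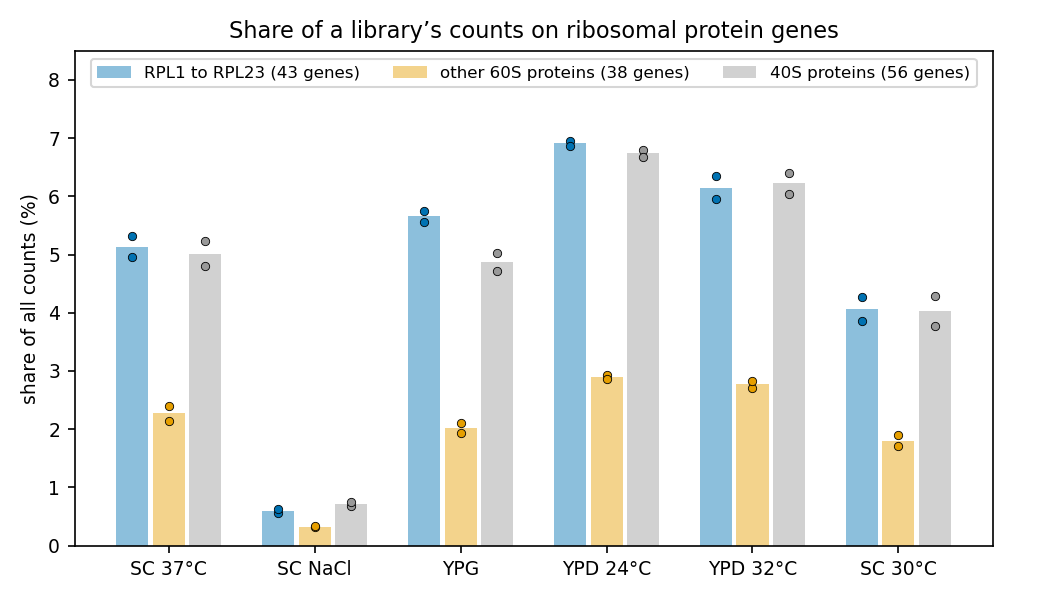
Share of all counts of a library (%, y axis) on the 43 genes of Rpl1 to Rpl23, the 38 other 60S genes and the 56 genes of the 40S subunit in the 6 environments (x axis); bars are means and points the 2 libraries. The members took 0.600% ± 0.0501 in SC NaCl and 4.07% ± 0.289 in SC 30°C (SD, n = 2 each).

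Among the 43 genes, 42 had their lowest environment mean in SC NaCl. The highest mean was in YPD 24°C for 22, in YPD 32°C for 14 and in YPG for 7. The range of environment means on log2(count + 1) had a median of 3.69 over the members, and of 0.80 with SC NaCl left out. It was widest in *RPL9A* (5.94) and *RPL3* (4.73) and narrowest in *RPL14B* (1.19) and *RPL15B* (0.38). All 43 members differed between the environments by limma's moderated F test with Benjamini-Hochberg adjustment, as did 96% of all genes tested.

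The 3 single-copy genes moved with the group. *RPL3*, whose protein reaches into the peptidyl transferase centre, had 4065 and 3689 FPKM in SC 37°C, 198 and 243 in SC NaCl, 4064 and 3924 in YPG, 5955 and 5711 in YPD 24°C, 4036 and 4345 in YPD 32°C, and 3333 and 2893 in SC 30°C. *RPL5*, whose protein carries the 5S ribosomal RNA into the subunit, had 2747 and 2780 FPKM in SC 37°C, 234 and 287 in SC NaCl, 3651 and 3521 in YPG, 3850 and 3792 in YPD 24°C, 3499 and 3702 in YPD 32°C, and 2301 and 2087 in SC 30°C. *RPL10*, whose protein joins late in the maturation of the subunit, had 5096 and 4380 FPKM in SC 37°C, 555 and 584 in SC NaCl, 5778 and 5563 in YPG, 6960 and 7013 in YPD 24°C, 5229 and 5769 in YPD 32°C, and 4657 and 3958 in SC 30°C. All 3 were lowest in both SC NaCl libraries and highest in both YPD 24°C libraries, and only *RPL10* at 37°C overlapped the SC 30°C libraries. *RPL10* had the highest FPKM mean of all members in SC 37°C (4738), YPG (5670), YPD 24°C (6987), YPD 32°C (5499) and SC 30°C (4308), and in SC NaCl it came after *RPL19B*, at 569 FPKM against 894.

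The subunit holds 1 copy of each of these proteins, so the paralogs of each were also summed on the FPKM scale. In SC 30°C the summed levels of the 23 proteins lay between 1406 FPKM for *RPL22* and 4308 FPKM for *RPL10*, a 3.06-fold spread. The spread of the sums was 7.68-fold in SC NaCl, 2.64-fold in SC 37°C, 3.80-fold in YPG, 3.31-fold in YPD 24°C and 2.75-fold in YPD 32°C.

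In SC NaCl the messages of Rpl1 to Rpl23 were strongly lower. Of the 43 members 42 fell in SC NaCl against SC 30°C and 1, *RPL15B*, did not pass the test (limma on log2(count + 1), Benjamini-Hochberg adjusted p under 0.05). By the same test 80.9% of all genes changed, 33.8% higher and 47.2% lower. The libraries of SC NaCl lay below those of SC 30°C without overlap in 42 members and above them in 0, against 50.2% and 37.4% of all genes. The median log2 change of the members was -2.91, which is 7.54-fold lower, against -0.22 for all genes tested. Of the other 60S genes 35 of 35 tested fell (median -2.69) and of the 40S genes 55 of 56 (median -2.58).

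Within the members the fall was uneven. *RPL9A* fell most, by 5.02 on the log2 scale (SE 0.122, limma adjusted p = 5.4e-14), and *RPL3* (-3.82), *RPL22A* (-3.82), *RPL15A* (-3.80) and *RPL17B* (-3.80) were also among those that fell far. *RPL14B* (-0.66, SE 0.0851, adjusted p = 4.42e-06), *RPL22B* (-0.80, SE 0.127, adjusted p = 3.61e-05), *RPL6A* (-1.11) and *RPL23A* (-1.20) fell least. *RPL15B* had a log2 change of -0.16 (SE 0.121, adjusted p = 0.242), a value that became 0.033 under median-of-ratios scaling. Members with an intron had a median of -2.90 (26 genes) and members without one of -2.91 (17 genes). The 17 members with the Rap1-type match had a median of -2.83 and the 26 without it of -2.97.

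Genes known to be held down by glucose moved in the same libraries. *PCK1*, for the first committed step of gluconeogenesis, had 72849 and 76063 counts in SC NaCl, against 167 and 138 in SC 30°C, and *ICL1*, of the glyoxylate cycle, 26469 and 34543 counts in SC NaCl, against 826 and 883 in SC 30°C. *STL1*, a glycerol importer known to respond to salt, had 35223 and 42072 counts in SC NaCl, against 202 and 234 in SC 30°C. *PCK1* was also higher in YPG than in SC 30°C (log2 change 8.37), where no member fell. The part of the carbon source left in these cultures in the fall of the members was not tested.

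Summed over paralogs, the log2 ratio of the FPKM in SC NaCl to that in SC 30°C had a median of -2.87 over the 23 proteins, with *RPL3* (-3.82) at the low end and *RPL19* (-1.66) and *RPL6* (-1.58) at the high end. Next below the last 2 proteins came *RPL14* at -2.20. A gap of similar size lay at the low end, above which *RPL15* stood at -3.20.

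**Figure D2:**
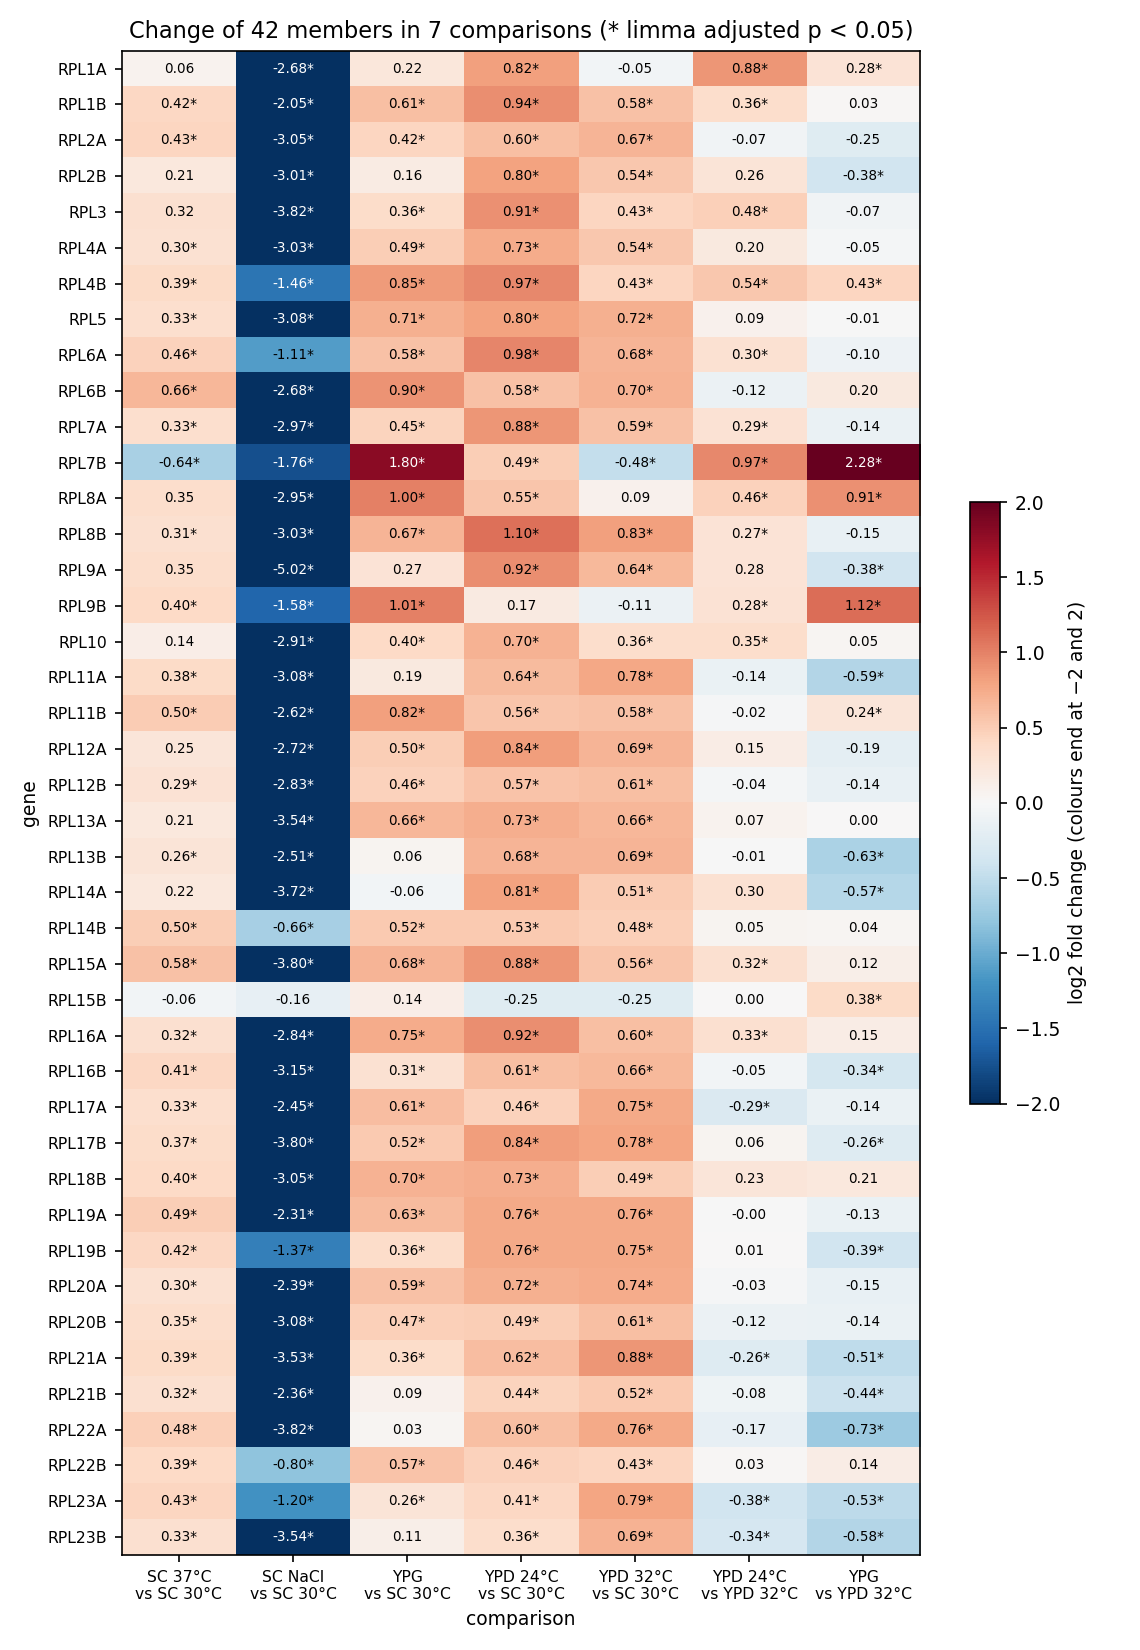
Log2 fold change of 42 of the 43 members (y axis) in the 7 comparisons (x axis), with the value printed in each cell and an asterisk where the limma adjusted p was under 0.05; colours end at -2 and 2. In SC NaCl all members shown but *RPL15B* fell, and *RPL7B* stands out in YPG at 1.80 against SC 30°C and 2.28 against YPD 32°C.

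Against SC 30°C the balance of paralogs was altered most in SC NaCl, where the log2 ratio of A to B moved by a median of 1.10 in either direction, against 0.0894 in SC 37°C, 0.373 in YPG, 0.231 in YPD 24°C and 0.133 in YPD 32°C. The ratio of A to B changed against SC 30°C in 17 of 20 pairs (limma on the log2 ratio of counts). Benjamini-Hochberg adjustment was over 60 pairs of yeast genes with A and B symbols, of which 86.7% changed. Those 60 include the 20 pairs of members, and all but *COX5* and *NHP6* are pairs of ribosomal protein genes. Shares of the 60 pairs are therefore no background over the genome. The ratio of the members moved toward B in 12 pairs and toward A in 5, while *RPL2*, *RPL8* and *RPL12* did not pass. The paralog with fewer transcripts in the 4 environments outside this comparison was called the minor one. The ratio moved toward the minor paralog in 12 pairs and toward the major one in 5 (*RPL1*, *RPL6*, *RPL13*, *RPL17* and *RPL19*), against 53.3% and 33.3% of the 60 pairs. The median log2 change was -2.51 over the minor and -3.06 over the major paralogs. In 6 pairs the minor paralog stood above the major one in both SC NaCl libraries, as it did in 26.7% of the 60 pairs. Among the 6 was *RPL20*, whose paralogs were nearly equal in the 4 environments used to name the minor one. There *RPL20A* held 46.8% (SC 37°C) to 51.5% (YPD 24°C) of the pair.

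In *RPL15*, whose protein lies close to the ribosomal RNA core and joins early in assembly, the A gene carried nearly all transcripts outside SC NaCl. *RPL15A* (YLR029C, chromosome XII, 201976 to 202590, minus strand) had 3752 and 3267 FPKM in SC 37°C, 157 and 179 in SC NaCl, 3663 and 3806 in YPG, 4349 and 4253 in YPD 24°C, 3202 and 3697 in YPD 32°C, and 2455 and 2223 in SC 30°C. *RPL15B* (YMR121C, chromosome XIII, 509734 to 510348, minus strand) had 116 and 95.5 FPKM in SC 37°C, 90.3 and 107 in SC NaCl, 113 and 129 in YPG, 93.3 and 91.7 in YPD 24°C, 94.2 and 90.8 in YPD 32°C, and 115 and 105 in SC 30°C. The B gene thus stayed between 90.3 and 129 FPKM in all 12 libraries while the A gene spanned 157 to 4349. *RPL15A* made up 63.0% ± 0.614 of the pair in SC NaCl and 95.5% ± 0.0325 in SC 30°C (SD, n = 2 each), and its share was highest in YPD 24°C at 97.9%. The log2 ratio of A to B changed by -3.65 in SC NaCl (SE 0.0873, limma adjusted p = 8.89e-10).

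*RPL22* encodes a protein on the outer face of the subunit, and Rpl22 is known in yeast to hinder the splicing of the intron of *RPL22B*. *RPL22A* had 1827 and 1789 FPKM in SC 37°C, 82.8 and 101 in SC NaCl, 1242 and 1411 in YPG, 1938 and 1975 in YPD 24°C, 2102 and 2289 in YPD 32°C, and 1338 and 1252 in SC 30°C. *RPL22B* had 154 and 138 FPKM in SC 37°C, 61.2 and 65.9 in SC NaCl, 145 and 189 in YPG, 152 and 153 in YPD 24°C, 152 and 148 in YPD 32°C, and 107 and 115 in SC 30°C. Both were lowest in SC NaCl, without overlap with any other environment, and the A gene was the higher one in all 12 libraries. *RPL22A* held 59.0% ± 2.14 of the pair in SC NaCl and 92.1% ± 0.726 in SC 30°C (SD, n = 2 each), a change of the log2 ratio by -3.01 (SE 0.105, limma adjusted p = 5.53e-09). In YPG the share was 88.9% and the log2 ratio was also lower than in SC 30°C (-0.54, adjusted p = 0.00207) and than in YPD 32°C (-0.87, adjusted p = 7.93e-05). An identifier next to *RPL22A* by its systematic number and outside the annotation, YLR062C, had 32.2% of the count of *RPL22A* in SC NaCl and 1.93% in SC 30°C.

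The order of the paralogs turned round in SC NaCl in *RPL9*, whose protein sits near the base of the stalk that receives elongation factors. *RPL9A* (YGL147C, chromosome VII, 227754 to 228329, minus strand) had 2177 and 1757 FPKM in SC 37°C, 45.6 and 49.1 in SC NaCl, 1762 and 1945 in YPG, 2922 and 2906 in YPD 24°C, 2217 and 2603 in YPD 32°C, and 1709 and 1381 in SC 30°C. *RPL9B* (YNL067W, chromosome XIV, 499681 to 500256, plus strand) had 871 and 765 FPKM in SC 37°C, 199 and 216 in SC NaCl, 1229 and 1273 in YPG, 693 and 705 in YPD 24°C, 530 and 621 in YPD 32°C, and 631 and 609 in SC 30°C. *RPL9A* was the higher gene in every library but the 2 of SC NaCl, where it was the lower one. It held 18.6% ± 0.0928 of the pair in SC NaCl and 71.2% ± 2.57 in SC 30°C (SD, n = 2 each), and the log2 ratio changed by -3.43 (SE 0.0853, limma adjusted p = 8.89e-10). YPG also stood apart, with *RPL9A* at 59.7% of the pair, against 80.7% in YPD 32°C (log2 ratio change -1.50, limma adjusted p = 4.64e-07).

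The same turn was seen in *RPL14*, which encodes a surface protein next to an expansion segment of the ribosomal RNA. *RPL14A* (YKL006W, chromosome XI, 431906 to 432720, plus strand) had 2392 and 1973 FPKM in SC 37°C, 126 and 158 in SC NaCl, 1745 and 1849 in YPG, 3335 and 3207 in YPD 24°C, 2546 and 2774 in YPD 32°C, and 2046 and 1705 in SC 30°C. *RPL14B* (YHL001W, chromosome VIII, 104277 to 105091, plus strand) had 896 and 908 FPKM in SC 37°C, 409 and 399 in SC NaCl, 849 and 984 in YPG, 911 and 930 in YPD 24°C, 857 and 923 in YPD 32°C, and 660 and 618 in SC 30°C. *RPL14B* was the higher gene in the 2 SC NaCl libraries only. *RPL14A* held 26.0% ± 3.42 of the pair in SC NaCl and 74.5% ± 1.56 in SC 30°C (SD, n = 2 each), with a change of the log2 ratio by -3.06 (SE 0.133, limma adjusted p = 2.34e-08).

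*RPL23* turned round in the other direction, toward A. *RPL23A* (YBL087C, chromosome II, 59822 to 60739, minus strand) had 1253 and 1146 FPKM in SC 37°C, 384 and 388 in SC NaCl, 1011 and 1117 in YPG, 1183 and 1181 in YPD 24°C, 1506 and 1565 in YPD 32°C, and 876 and 902 in SC 30°C. *RPL23B* (YER117W, chromosome V, 396769 to 397653, plus strand) had 2836 and 2462 FPKM in SC 37°C, 166 and 198 in SC NaCl, 2167 and 2392 in YPG, 2712 and 2696 in YPD 24°C, 3383 and 3440 in YPD 32°C, and 2139 and 2080 in SC 30°C. Both genes encode the same protein, and *RPL23B* was the higher one in all libraries but those of SC NaCl. *RPL23A* held 68.0% ± 2.53 of the pair in SC NaCl and 29.7% ± 0.846 in SC 30°C (SD, n = 2 each), with a change of the log2 ratio by 2.34 (SE 0.0782, limma adjusted p = 4.83e-09). Outside SC NaCl the environment means of its log2 ratio ranged over 0.15 only.

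**Figure D3:**
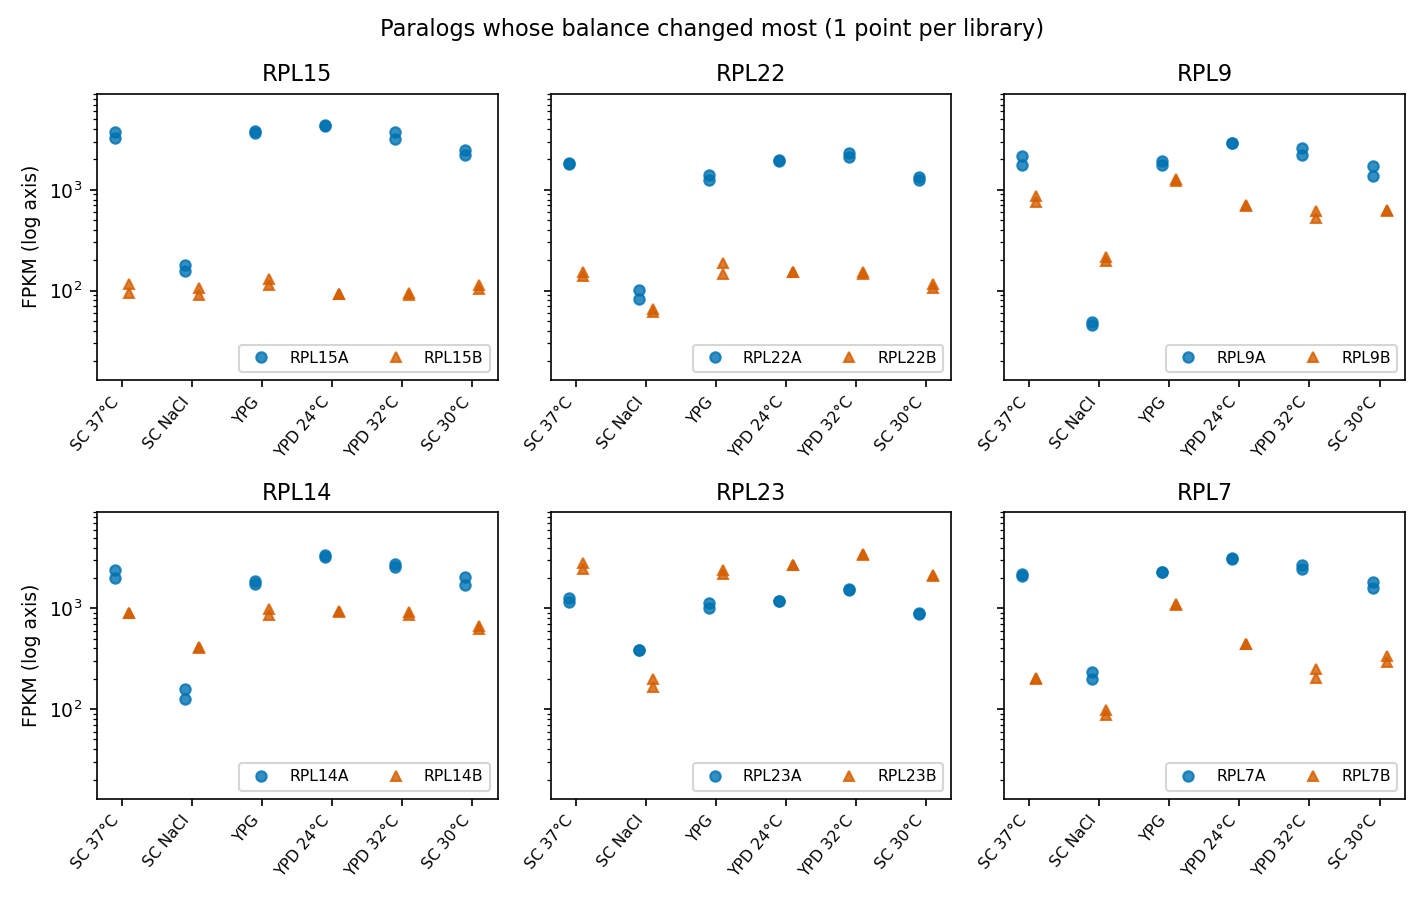
FPKM (log axis) of the A (circles) and B (triangles) paralogs of *RPL15*, *RPL22*, *RPL9*, *RPL14*, *RPL23* and *RPL7* in the 6 environments (x axis), with 1 point per library. In SC NaCl the A and B points approach each other in *RPL15* and *RPL22*, exchange places in *RPL9*, *RPL14* and *RPL23*, and in *RPL7* the B points are highest in YPG at 1083 and 1109.

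*RPL7* was the 1 pair of these 6 whose widest departure lay outside SC NaCl. Its protein binds at the interface of several ribosomal RNA domains. *RPL7A* (YGL076C, chromosome VII, 364335 to 365996, minus strand) had 2193 and 2072 FPKM in SC 37°C, 201 and 233 in SC NaCl, 2311 and 2312 in YPG, 3136 and 3084 in YPD 24°C, 2427 and 2675 in YPD 32°C, and 1815 and 1581 in SC 30°C. *RPL7B* (YPL198W, chromosome XVI, 173152 to 174702, plus strand) had 201 and 202 FPKM in SC 37°C, 87.6 and 97.9 in SC NaCl, 1083 and 1109 in YPG, 439 and 443 in YPD 24°C, 202 and 250 in YPD 32°C, and 334 and 295 in SC 30°C. *RPL7B* was thus higher in YPG than in any other library, and lower in SC 37°C and YPD 32°C than in SC 30°C, without overlap. The share of *RPL7A* in the pair was 91.4% in SC 37°C, 70.0% in SC NaCl, 67.8% in YPG, 87.6% in YPD 24°C, 91.9% in YPD 32°C and 84.4% in SC 30°C. Its log2 ratio to *RPL7B* changed by -2.42 in YPG against YPD 32°C (SE 0.0674, limma adjusted p = 4.75e-09) and by -1.35 in YPG against SC 30°C (adjusted p = 3.70e-07). YPL197C, an identifier next to *RPL7B* by number and outside the annotation, had between 16.6% and 23.8% of its count in the 12 libraries.

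**Figure D4:**
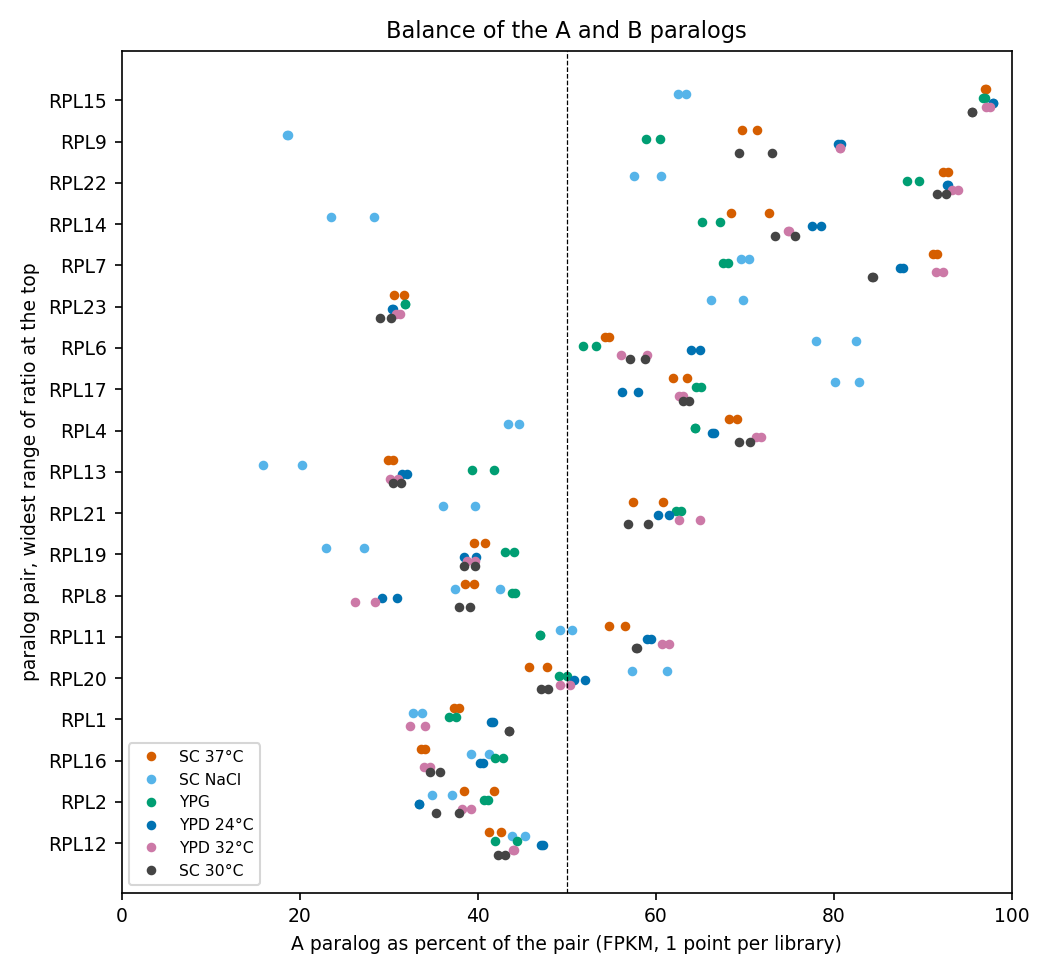
A paralog as percent of the summed FPKM of its pair (x axis) for 19 of the 20 pairs (y axis, widest range of the ratio at the top), with 1 point per library coloured by environment and a dashed line at equal levels. The SC NaCl points lie apart from the others in the upper pairs except *RPL7*, where they lie beside those of YPG. The *RPL12* points lie within a narrow band.

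Over all 20 pairs, A was the higher paralog in every library in 6 and B in 7, and the order differed between libraries in 7. The range of the log2 ratio over the environment means was widest in *RPL15* (4.77), *RPL9* (4.19), *RPL22* (3.35) and *RPL14* (3.34) and narrowest in *RPL12* (0.31), a protein of the stalk base. All 20 ratios differed between environments by the F test of limma, as did 96.7% of the 60 pairs. Without SC NaCl the widest ranges were those of *RPL7* (2.42), *RPL9* (1.50), *RPL15* (1.13) and *RPL8* (1.06).

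At 37°C the members rose slightly. In SC 37°C against SC 30°C 32 rose, 1 fell (*RPL7B*) and 10 did not pass, against 23.4% of all genes called, 11.9% higher and 11.6% lower. Both SC 37°C libraries lay above both SC 30°C libraries in 37 members and below them in 1, against 34.3% and 30.9% of all genes. The log2 changes of the members had a median of 0.35, against 0.016 over all genes. The rise was largest in *RPL6B* (0.66) and *RPL15A* (0.58, SE 0.105, limma adjusted p = 0.00104). *RPL7B* fell by 0.64 (SE 0.102, adjusted p = 0.000405). Of the other 60S genes 17 of 35 rose and of the 40S genes 30 of 56. The count rested on single libraries, since 13 members were called without SC 37°C replicate 1 and 13 without SC 30°C replicate 2. The ratio of paralogs changed in 3 of 20 pairs (*RPL1*, *RPL7* and *RPL15*), against 11.7% of the 60 pairs.

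Most members were higher in YPG than in SC 30°C, but not than in YPD 32°C. In YPG against SC 30°C 33 rose, 0 fell and 10 did not pass, against 66.9% of all genes called, 28.1% higher and 38.7% lower. Both YPG libraries lay above both of SC 30°C in 38 members and below them in 0, against 37% and 47.6% of all genes. The median log2 change was 0.49, against -0.11 over all genes, and *RPL7B* (1.80, SE 0.102, limma adjusted p = 1.50e-09), *RPL9B* (1.01) and *RPL8A* (1.00) rose most. Paralog ratios changed in 16 of 20 pairs, against 66.7% of the 60 pairs. Fewer pairs passed whichever single library of either environment was left out, and *RPL6* and *RPL19* then never passed. The other 60S genes had 12 higher and 3 lower of 35 (median 0.06), and the 40S genes 24 higher and 5 lower of 56 (median 0.23). The comparisons with SC 30°C all share its 2 libraries.

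Against YPD 32°C, 7 members were higher in YPG, 14 were lower and 22 did not pass, where 63.4% of all genes were called, 26.9% higher and 36.5% lower. Both YPG libraries lay above both of YPD 32°C in 10 members and below them in 24, against 36.4% and 48.1% of all genes. The log2 changes of the members had a median of -0.14, against -0.10 over all genes, while 25 of 35 other 60S genes (median -0.52) and 31 of 56 genes of the 40S subunit (median -0.42) were lower. Under median-of-ratios scaling 10 members were higher and 11 lower. The members that were higher were *RPL1A*, *RPL4B*, *RPL7B*, *RPL8A*, *RPL9B*, *RPL11B* and *RPL15B*. Of these, *RPL1A* did not pass without the filter on low counts or without the mean-variance trend. *RPL1A*, *RPL11B* and *RPL15B* also did not pass in some of the fits that left out a library. *RPL7B* rose by 2.28 (SE 0.102, limma adjusted p = 1.19e-10), *RPL9B* by 1.12 (SE 0.0930, adjusted p = 8.66e-08) and *RPL8A* by 0.91 (SE 0.132, adjusted p = 2.90e-05).
*RPL8A*, for a protein near the exit side of the subunit, had 1159 and 1094 FPKM in SC 37°C, 95.4 and 138 in SC NaCl, 1741 and 1799 in YPG, 1330 and 1265 in YPD 24°C, 867 and 1022 in YPD 32°C, and 894 and 874 in SC 30°C. *RPL4B*, for a protein that extends into the exit tunnel, had 813 and 729 FPKM in SC 37°C, 200 and 227 in SC NaCl, 1090 and 1033 in YPG, 1169 and 1127 in YPD 24°C, 764 and 815 in YPD 32°C, and 635 and 542 in SC 30°C. *RPL11B*, for a partner of Rpl5 in 5S RNA binding, had 1167 and 1252 FPKM in SC 37°C, 130 and 148 in SC NaCl, 1440 and 1575 in YPG, 1264 and 1250 in YPD 24°C, 1242 and 1313 in YPD 32°C, and 843 and 865 in SC 30°C. In all 3 genes both YPG libraries stood above both YPD 32°C libraries. *RPL1A*, of the mobile L1 stalk, had 1187 and 1020 FPKM in SC 37°C, 159 and 169 in SC NaCl, 1212 and 1242 in YPG, 1849 and 1872 in YPD 24°C, 951 and 1082 in YPD 32°C, and 1146 and 966 in SC 30°C, and so was highest in YPD 24°C. *RPL22A* fell most, by 0.73 (SE 0.0994, adjusted p = 1.58e-05). The ratio of paralogs changed in 13 of 20 pairs, against 61.7% of the 60 pairs.

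In rich glucose medium nearly all members stood above SC 30°C. In YPD 24°C 41 rose, 0 fell and 2 (*RPL9B* and *RPL15B*) did not pass, against 56% of all genes called, 10.4% higher and 45.6% lower. The 2 libraries were above those of SC 30°C in 42 members and below in 1, against 19.1% and 63.6% of all genes. The median log2 change was 0.72, against -0.29 over all genes, with the largest rise in *RPL8B* (1.10, SE 0.0913, limma adjusted p = 1.92e-07). In YPD 32°C 38 rose, *RPL7B* fell (-0.48, SE 0.102, adjusted p = 0.00176) and 4 (*RPL1A*, *RPL8A*, *RPL9B* and *RPL15B*) did not pass, against 38.2% of all genes called, 16.7% higher and 21.5% lower. The 2 libraries were above those of SC 30°C in 38 members and below in 2, against 35.3% and 38.6% of all genes. The median there was 0.61, against -0.012 over all genes, and *RPL21A* rose most (0.88, SE 0.0810, adjusted p = 8.22e-07). Paralog ratios changed in 9 pairs in YPD 24°C, against 28.3% of the 60 pairs, and in 7 in YPD 32°C, against 21.7%. The first of these numbers was 5 without YPD 24°C replicate 2.

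Between the temperatures in YPD the members were divided. In YPD 24°C against YPD 32°C 13 rose, 4 fell and 26 did not pass, against 49.3% of all genes called, 6.71% higher and 42.6% lower. The libraries did not overlap in 24 members that were higher and 9 that were lower in YPD 24°C, against 16% and 66.6% of all genes. The median log2 change was 0.07, against -0.26 over all genes, and scaling by the median of ratios, which moved the median of all genes to 0.0031, gave 30 higher and 0 lower members with a median of 0.33. *RPL7B* (0.97, SE 0.102, limma adjusted p = 4.46e-06) and *RPL1A* (0.88, SE 0.102, adjusted p = 1.09e-05) rose most. The count of called members, 17, was 8 without YPD 24°C replicate 1, 7 without YPD 24°C replicate 2 and 6 without YPD 32°C replicate 1.
The 4 members that fell were *RPL17A*, *RPL21A*, *RPL23A* and *RPL23B*, and none of them passed under median-of-ratios scaling, where *RPL21A* was at 0.00772. *RPL17A*, for a protein at the rim of the exit tunnel, had 2517 and 2355 FPKM in YPD 24°C, against 2946 and 3004 in YPD 32°C (log2 change -0.29, adjusted p = 0.0115). Elsewhere it had 2339 and 2103 FPKM in SC 37°C, 326 and 320 in SC NaCl, 2609 and 2794 in YPG, and 1782 and 1748 in SC 30°C. *RPL21A*, for a protein of the central protuberance, had 3389 and 3452 FPKM in YPD 24°C, against 4049 and 4129 in YPD 32°C (-0.26, adjusted p = 0.0178). Its other values were 2800 and 3030 FPKM in SC 37°C, 194 and 190 in SC NaCl, 2742 and 2991 in YPG, and 2195 and 2262 in SC 30°C, so that both genes were lowest in SC NaCl and highest in YPD 32°C. The 2 genes of Rpl23, given above, changed by -0.38 (*RPL23A*, adjusted p = 0.00157) and -0.34 (*RPL23B*, adjusted p = 0.0121). The libraries of the 2 temperatures did not overlap in any of these 4 genes. Paralog ratios changed in 9 of 20 pairs, against 41.7% of the 60 pairs, and this number was 5 without YPD 24°C replicate 1, 4 without YPD 24°C replicate 2 and 4 without YPD 32°C replicate 1.

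Genes that serve these proteins were followed by lists, whose counts stand beside the shares of all genes called (in SC NaCl 33.8% higher and 47.2% lower, in YPG 28.1% higher and 38.7% lower than in SC 30°C). The chaperones Rrb1 (of Rpl3), Acl4 (of Rpl4), Syo1 (of Rpl5 and Rpl11), Sqt1 (of Rpl10) and Bcp1 (of Rpl23) each guard a single member or complex before assembly. All 5 fell in SC NaCl on the log2 scale (*RRB1* -3.21, *SQT1* -1.52, *SYO1* -1.46, *ACL4* -0.74 and *BCP1* -0.71). All 5 were higher in YPG than in SC 30°C (0.84 to 1.14) and than in YPD 32°C (0.62 to 0.84). Of all genes 26.9% were called higher and 36.5% lower in YPG than in YPD 32°C. Of the genes of their clients in YPG against YPD 32°C, *RPL4B* (0.43) and *RPL11B* (0.24) rose and *RPL11A* (-0.59), *RPL23A* (-0.53) and *RPL23B* (-0.58) fell, while *RPL3* (-0.068), *RPL4A* (-0.046), *RPL5* (-0.0055) and *RPL10* (0.046) did not pass. *RRB1* had 449 and 778 counts in SC NaCl, 10513 and 11105 in YPG, 6118 and 5972 in YPD 32°C, and 5341 and 5588 in SC 30°C.

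The 5 enzymes that methylate members (*HPM1* for Rpl3, *RKM1* for Rpl23, *RKM2* and *RMT2* for Rpl12, *RKM5* for Rpl1) all fell in SC NaCl, with log2 changes of -0.69 in *RKM1* to -2.15 in *RKM5*. In YPG against SC 30°C *RMT2* (1.60), *RKM2* (0.35) and *HPM1* (0.33) rose while *RKM5* (-1.04) and *RKM1* (-0.53) fell. Of the 9 genes listed as regulators of ribosomal protein genes 5 rose in SC NaCl, 3 fell and 1, *FHL1* (0.0053), did not pass. *CRF1*, a corepressor known to replace Ifh1 when TOR is inhibited, had 3753 and 4097 counts in SC NaCl, against 332 and 406 in SC 30°C, a rise of 3.41 (SE 0.135, limma adjusted p = 6.91e-12). *TOR1* (1.17), *SFP1* (0.83), *TOR2* (0.67) and *SCH9* (0.30) also rose. *IFH1*, the coactivator of these promoters (-1.18), *HMO1* (-0.56) and *RAP1* (-0.26) fell. In YPG against SC 30°C *RAP1* (0.90), *SCH9* (0.85), *FHL1* (0.51), *IFH1* (0.43) and *HMO1* (0.39) rose. In YPD 32°C *IFH1* (0.47) and *TOR1* (0.37) rose, where 16.7% of all genes were called higher and 21.5% lower. In YPD 24°C *RAP1* (0.19) rose and *CRF1* (-0.69) and *IFH1* (-0.34) fell, against 10.4% and 45.6% of all genes. In SC 37°C *TOR1* (0.24) rose and *SCH9* (-0.22) fell, against 11.9% and 11.6%.

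Some counts stand beside those of identifiers outside the annotation. There were 11 such identifiers next to 10 of the members by systematic number, and reads from overlapping transcripts cannot be told apart where strand was not used in counting. YEL053W-A had between 24.2% and 95.1% of the count of *RPL12A*, YDR417C between 18.6% and 78.8% of that of *RPL12B*, and YLL044W between 9.10% and 70.6% of that of *RPL8B*. With these counts added to the members, only *RPL12B* in SC 37°C and *RPL8B* in YPD 24°C against YPD 32°C no longer passed, in a check chosen after the data were seen. In the same check the ratio of *RPL8* passed in SC NaCl and no longer in YPG against SC 30°C, that of *RPL22* passed in YPD 32°C, and that of *RPL12* no longer passed in YPD 24°C against SC 30°C or YPD 32°C.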

How the data were processed

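Total RNA of 12 libraries was sequenced. The authors aligned the reads to the R64 yeast genome, handled alignments with SAMtools 1.9 and quantified genes with Cufflinks tools. The deposited counts are estimates that Cuffnorm scaled to a common library size, a signal that need not be whole. The deposited FPKM values come from the same programs and held a constant ratio to the counts of a gene. Of low values (0.5 to 20), between 74.2% and 82% were whole multiples of 1 step within 0.01 of the step, so that reads could not be recovered and no test for counts was run. A count near 1 stands for about 1 read pair, and this depth limits only low genes. Of the 7127 identifiers 6091 matched the annotation. The titles of the YPG libraries and the growth protocol give YPG, although their medium label reads YPD. The labels call the libraries non-paired while the methods give paired reads. No column was left without a sample (0).

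Genes averaging 10 counts or more were fitted with limma 3.58.1 (R 4.3.3) on log2(count + 1) with the environment as the only factor, a mean-variance trend, and Benjamini-Hochberg adjustment done separately for the 7 comparisons (threshold 0.05). Since each environment has 2 libraries, all 12 shared the estimate of the spread. Log2 ratios of A to B counts were fitted in the same way without the trend. The procedure was tested on simulated data in which few genes were changed, a setting unlike that of SC NaCl. Sequences and positions came from RefSeq R64 (Biopython 1.88), and Python 3.11.15, numpy 2.4.6, pandas 2.3.3 and matplotlib 3.10.9 did the rest. Protein sequences were not used here beyond translation of coding sequences for identity.

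Values in every library were given for the single-copy genes, *RPL15*, *RPL22*, the 4 other pairs with the widest range of the ratio, the 2 members with the widest and the 2 with the narrowest range, and members called against the direction of most. Further members are named by the size of their change. The values of 1 member and of its pair are not reported here, although counts and medians over the members include them. The members named singly and the lists were chosen with earlier results of these data known. Alternatives were other filters, pseudocounts, scalings, FPKM, fits of single comparisons, the replicate block and leaving out each library.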

Additional observations from a re-analysis of the deposited data

How the results depend on the processing

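The scaling and single libraries mattered most. Under median-of-ratios scaling the median log2 change of the members was -2.72 in SC NaCl, 0.62 in YPG and 1.00 in YPD 24°C against SC 30°C, 0.33 in YPD 24°C and -0.030 in YPG against YPD 32°C, and 30 members were called in YPD 24°C against YPD 32°C. In that comparison the scaling moved the median of all genes from -0.26 to 0.0031, and 13 of the 16 members below 0 came to lie above it. Those called under one of these scalings were *RPL19A* (0.26), *RPL21A* (0.00772), *RPL12B* (0.23), *RPL11B* (0.24) and *RPL20A* (0.24). On the FPKM scale the members took 8.13% in SC 37°C, 1.03% in SC NaCl, 9.43% in YPG, 10.7% in YPD 24°C, 9.71% in YPD 32°C and 6.55% in SC 30°C. Of the counts without the 50 highest other genes they took 6.30%, 0.686%, 6.44%, 8.91%, 7.25% and 4.94% in the same order, and of nuclear protein-coding counts 7.03% in YPD 24°C.

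Leaving out 1 library at a time gave 13 to 25 called members in SC 37°C, 42 in SC NaCl, 29 to 34 in YPG, 40 to 41 in YPD 24°C and 33 to 38 in YPD 32°C against SC 30°C. It gave 6 to 13 in YPD 24°C and 17 to 18 in YPG against YPD 32°C. The median in SC NaCl lay between -3.004 and -2.71. Pairs with a changed ratio numbered 5 to 7 in YPD 24°C against SC 30°C and 4 to 6 against YPD 32°C. In YPG against SC 30°C, too, fewer pairs passed whichever library was left out. A lone library was assumed to vary like the others.

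The replicates were propagated independently and share only a number. The correlation of same-numbered deviations was 0.213 in SC 37°C against SC 30°C and between -0.0941 and 0.0354 in the other comparisons. With the replicate number as a block, 30 members were called in SC 37°C, with *RPL4A* and *RPL13B* among those that no longer passed, and the counts of members in the other comparisons were as before. Pairs with a changed ratio then numbered 6 in YPD 32°C against SC 30°C and 8 in YPD 24°C against YPD 32°C. No other setting moved a count of members by over 1.5 times. In SC 37°C against SC 30°C, however, 22 members in place of 33 were called without the mean-variance trend. Without the filter on low counts 26 were called there. In YPD 24°C against YPD 32°C, 25 in place of 17 were called when only these 2 environments were fitted. With 2 libraries in each environment, single values far from their group could not be sought.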
